A study of Mus musculus with 12 samples.

Results

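The interleukin 12 family was followed in bone marrow-derived macrophages (BMDM) through the 5 genes that code for its subunits, *Il12a* (p35), *Il12b* (p40), *Il23a* (p19), *Il27* (p28) and *Ebi3*. The genes were taken by symbol, and all 5 were among the 43280 genes of the table. BMDM are grown from mouse bone marrow with the growth factor M-CSF and serve as a culture model of macrophages. The cells came from C57BL6 mice that were wild type (wt) or lacked *Treml4* (*Treml4*-/-), and both genotypes were grown and treated in the same way. They received vehicle (unstimulated, M0) or lipopolysaccharide (LPS), a component of bacterial outer membranes, at 100 ng/mL for 8 h (M1-8h) or 12 h (M1-12h). Each of the 6 conditions had 2 libraries, labelled as biological replicates, which gave 12 poly(A)-selected RNA-seq libraries.

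Cytokines of this family are secreted as pairs of chains. Interleukin 12 joins the products of *Il12a* and *Il12b*, interleukin 23 those of *Il23a* and *Il12b*, interleukin 27 those of *Il27* and *Ebi3*, and interleukin 35 those of *Il12a* and *Ebi3*, so that a partner can limit how much of a cytokine is made. Macrophages and dendritic cells are known sources of these cytokines after contact with microbial products, and T cells and natural killer cells are known to respond to them through receptors that signal by JAK kinases and STAT proteins.

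Between 48008751 and 58500792 reads were counted on genes per library, so that 1 read was worth 0.0171 to 0.0208 CPM (counts scaled to library size), and a count of 0 allowed a level of up to 0.0513 to 0.0625 CPM (3 reads, counting error only). *Treml4* had 433 and 334 reads in the wt M0 libraries, 198 and 213 in those of M1-8h, 512 and 663 in those of M1-12h, and 0 reads in each of the 6 *Treml4*-/- libraries. The 6 macrophage markers, among them *Emr1* (*Adgre1*), *Csf1r* and *Cd68*, summed to between 10002 and 12329 CPM per library at M0, between 5932 and 6447 CPM at M1-8h and between 6260 and 6942 CPM at M1-12h. These 6 did not all move as their sum did. *Emr1*, *Csf1r* and *Cd68* had their lowest values in LPS libraries. *Fcgr1* (59.6 to 1348 CPM), *Mertk* (28.9 to 301.6 CPM) and *Itgam* (880.4 to 1475 CPM) had theirs in M0 libraries. Each T cell marker (*Cd3e*, *Cd3d*, *Cd3g*) had at most 1 read in any library. As a sum, dendritic cell markers were higher under LPS than at M0, as *Il12b*, *Il27* and *Ebi3* were. Their 6 genes summed to between 0.747 and 1.06 CPM at M0, between 6.14 and 9.25 CPM at M1-8h and between 4.37 and 8.08 CPM at M1-12h. Of the 6, *Xcr1* (at most 7.19 CPM) and *Clec9a* (at most 2.30 CPM) reached 1 CPM in any library. The defining markers *Flt3* and *Zbtb46* stayed at or below 0.713 and 0.337 CPM. The markers did not all move as the sum did. *Flt3* and *Cd209a* had their highest values in M0 libraries, *Zbtb46* and *Siglech* theirs in LPS libraries. Neutrophil and precursor markers summed to 19.0 to 60.7 CPM at M0, 16.99 to 23.4 CPM at M1-8h and 6.10 to 6.42 CPM at M1-12h. The part of other cells in the values below was not tested. In bulk RNA, a change in the number of cells that express a gene and a change in RNA per cell cannot be told apart.

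RefSeq promoter sequences (GRCm38.p6) were on hand for 3 of the 5 genes. The 250 bases before the start are shown for *Il12b*, whose level rose by the largest factor, for *Ebi3*, which was already expressed at M0, and for *Il12a*, with capitals for bases matched by a searched motif.
*Il12b*, chr11:44399813-44400062, plus strand: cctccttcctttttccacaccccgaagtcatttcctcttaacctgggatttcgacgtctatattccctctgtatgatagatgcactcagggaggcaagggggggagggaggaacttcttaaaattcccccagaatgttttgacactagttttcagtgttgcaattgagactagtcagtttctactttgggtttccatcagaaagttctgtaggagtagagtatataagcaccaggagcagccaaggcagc
*Ebi3*, chr17:55952373-55952622, plus strand: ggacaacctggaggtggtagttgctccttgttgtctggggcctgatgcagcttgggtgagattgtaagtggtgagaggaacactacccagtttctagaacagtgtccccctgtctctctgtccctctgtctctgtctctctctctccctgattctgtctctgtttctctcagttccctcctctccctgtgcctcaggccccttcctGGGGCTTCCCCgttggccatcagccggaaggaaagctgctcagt
*Il12a*, inner start, chr3:68691174-68691423, plus strand: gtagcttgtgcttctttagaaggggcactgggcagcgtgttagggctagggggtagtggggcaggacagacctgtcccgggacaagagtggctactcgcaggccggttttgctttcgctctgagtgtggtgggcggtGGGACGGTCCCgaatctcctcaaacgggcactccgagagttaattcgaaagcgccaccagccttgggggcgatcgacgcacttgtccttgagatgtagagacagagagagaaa
Both strands were searched for 6 motifs, with N for any base. The NF-kB motif was GGG, any 5 bases and then CC. The interferon-stimulated response element was a pair of GAAA boxes that had 2 bases of any kind between them. The Ets-IRF motif had GGAA in place of the first of these boxes. The C/EBP motif was TTG, any 3 bases and then AA. The AP-1 and TATA box motifs were TGANTCA and TATAAA, respectively. The NF-kB letters were found in the *Ebi3* window at GGGGCTTCCCC and in the *Il12a* window at GGGACGGTCCC, both as overlapping matches on the 2 strands. These letters were also in 45.8% of the 32851 mouse promoter windows of the same length. None of the 6 sets of letters was in the *Il12b* window or before the outer *Il12a* start, and the other 5 sets were in 2.98%, 2.30%, 33.3%, 6.75% and 12.4% of all windows, in the order given. A match is a run of letters and not a known binding site, and a window without one says nothing of the factor.

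LPS raised *Il12b*, *Il27* and *Ebi3* in both genotypes, brought *Il12a* from 0 reads to a low level, and left *Il23a* at or near 0. *Il12b* and *Il27* were highest at M1-8h and lower at M1-12h, whereas *Ebi3* differed little between the LPS times. No subunit gene passed the test between wt and *Treml4*-/- cells at any time.

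*Il12b* codes for p40, the chain that interleukin 12 and interleukin 23 have in common. It lies on chromosome 11 of GRCm38 from 44400063 to 44414033, with 8 exons in its longest coding transcript. At M0 it had 1 and 4 reads in wt and 3 and 3 reads in *Treml4*-/- libraries. At M1-8h it had 337 and 299.9 CPM in wt and 261 and 332 CPM in *Treml4*-/- cells. At M1-12h it had 62.2 and 46.0 CPM in wt and 68.8 and 55.2 CPM in *Treml4*-/- cells. The 3 times were thus fully separated, and at each of them the genotypes overlapped or lay within a few reads of each other. The ratio of summed CPM at M1-8h to M0 was 6521 in wt (95% counting interval 2794 to 20085) and 5041 in *Treml4*-/- cells (2316 to 13738), wide because so few reads were counted at M0.

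*Il27* codes for p28, the cytokine-like chain of interleukin 27. It lies on chromosome 7 from 126589010 to 126594941 on the minus strand, with 5 exons. At M0 it had 0.694 and 0.610 CPM in wt and 0.733 and 0.524 CPM in *Treml4*-/- cells, from 28 to 36 reads per library. At M1-8h it had 1048 and 670.2 CPM in wt and 892 and 880 CPM in *Treml4*-/- cells. At M1-12h it had 215 and 218 CPM in wt and 155 and 165 CPM in *Treml4*-/- cells. The wt M1-8h replicates lay on either side of both *Treml4*-/- values, and at M1-12h both wt libraries were above both *Treml4*-/- libraries. Summed CPM at M1-8h were 1305 times those at M0 in wt (95% counting interval 1027 to 1684) and 1420 times in *Treml4*-/- cells (1112 to 1843). Exons of *Il27* share 103 of their 1021 bases with *Apobr* on the other strand, and the strand setting of the counting is not given in the sources used here. *Apobr* moved the other way, from 10283 to 11943 reads per library at M0 to 3412 to 4386 at M1-8h and 2772 to 3323 at M1-12h.

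*Ebi3* codes for the receptor-like chain of interleukin 27 and was the only subunit gene above 1 CPM at M0. It lies on chromosome 17 from 55952640 to 55957022, with 5 exons, 7.68 Mb from *Treml4* on the same chromosome. At M0 it had 52.3 and 54.7 CPM in wt and 54.8 and 49.8 CPM in *Treml4*-/- cells. At M1-8h it had 147 and 159 CPM in wt and 122 and 115 CPM in *Treml4*-/- cells. At M1-12h it had 129.7 and 149.6 CPM in wt and 108 and 118 CPM in *Treml4*-/- cells. Both LPS times were above M0 in every library, and at each LPS time both wt libraries were above both *Treml4*-/- libraries. Summed CPM rose 2.86 times in wt and 2.27 times in *Treml4*-/- cells by 8 h. The antisense gene *Gm16712* shares 270 of the 1154 exonic bases and had 8 to 38 reads per library.

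*Il12a* codes for p35, the chain that sets interleukin 12 and interleukin 35 apart from the other cytokines of the family. It lies on chromosome 3 from 68690644 to 68698547. It had 0 reads in each of the 4 M0 libraries. At M1-8h it had 34 and 58 reads in wt and 36 and 39 reads in *Treml4*-/- libraries, or 0.615 to 1.08 CPM. At M1-12h it had 18 and 40 reads in wt and 13 and 17 reads in *Treml4*-/- libraries, or 0.271 to 0.794 CPM. Every LPS library was above every M0 library, and the LPS times overlapped in wt but not in *Treml4*-/- cells. Set against a floor of 3 reads per M0 library, it was at least 15.1-fold higher at M1-8h and at least 9.75-fold higher at M1-12h in wt, and at least 11.3-fold and 4.83-fold higher in *Treml4*-/- cells.

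*Il23a* codes for p19, the chain particular to interleukin 23. It lies on chromosome 10 from 128296139 to 128298752. Over all 12 libraries 3 reads were counted, 1 in each wt M0 library and 1 in the second *Treml4*-/- M1-12h library. At M1-8h the 4 libraries had 0 reads, which allows a level of up to 0.0513 to 0.0606 CPM. No change of *Il23a* was detectable at this depth.

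**Figure D1:**
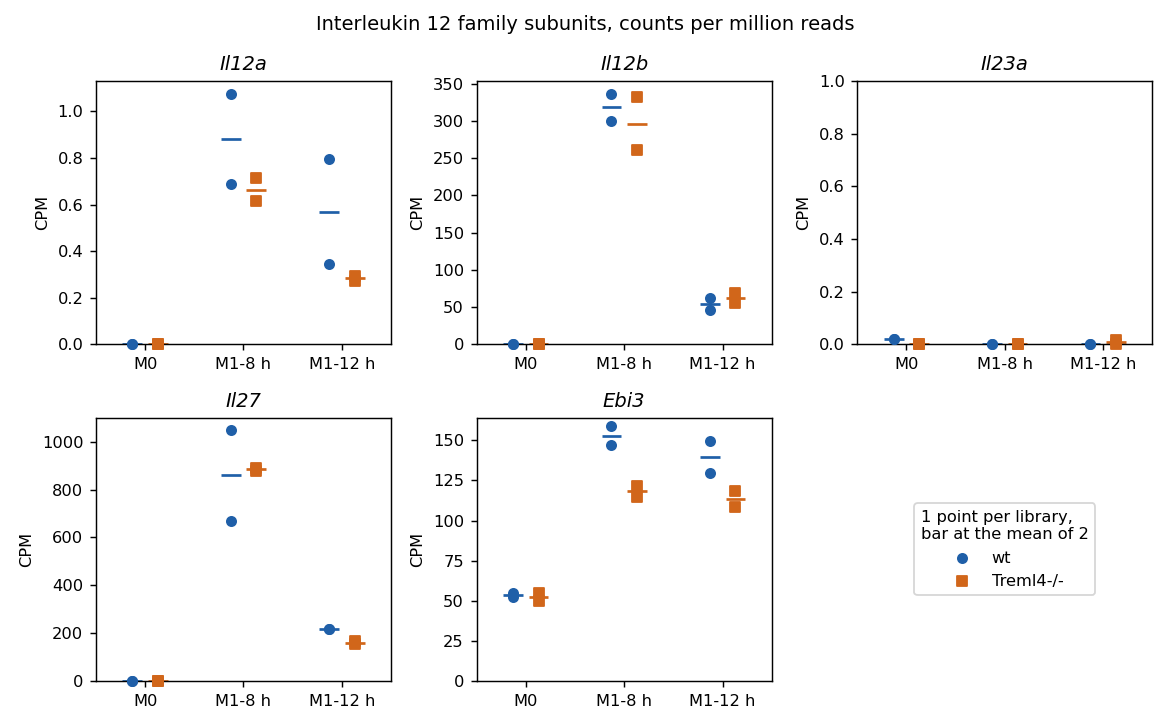
Level of each subunit gene in CPM (vertical axis, linear, from 0, a different range in each panel) by condition, with 1 point per library and a bar at the mean of 2 libraries, wt as circles and Treml4-/- as squares. *Il12b* and *Il27* peaked at M1-8h, at 261 to 337 and 670.2 to 1048 CPM, *Ebi3* stayed between 108 and 159 CPM under LPS, and *Il23a* lay on the axis.

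Tests used limma on log2(CPM + 1), for the 12086 genes that reached 1 CPM in 2 or more libraries. A gene was called where its p, adjusted over all of them by Benjamini and Hochberg's method, was below 0.05 and it changed 1.4-fold or more. Of the 5 genes, *Il12b*, *Il27* and *Ebi3* passed this filter and *Il12a* and *Il23a* did not. *Il12b* and *Il27* passed it through their 8 LPS libraries alone, with 0 of 4 M0 libraries at 1 CPM, so that a higher level under LPS was built into their being tested, whereas *Ebi3* passed at M0 as well. On this scale, most genes tested were called between LPS and M0. In wt, 76.9% of genes tested were called at M1-8h (16.3% higher) and 76.7% at M1-12h (16.2% higher). In *Treml4*-/- cells the shares were 75.9% (17.7% higher) and 75.7% (16.1% higher). The median log2 fold change of all genes tested was -0.74 in wt and -0.70 in *Treml4*-/- cells at M1-8h, then -0.77 in wt and -0.74 in *Treml4*-/- cells at M1-12h. Values below are relative to the library total, and a gene at -0.74 therefore moved as the median gene did.

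*Ebi3* was called higher at both LPS times in both genotypes. It rose by 1.496 on the log2 scale (SE 0.10, adjusted p = 5.72e-08, limma) in wt and 1.16 (adjusted p = 4.45e-07, limma) in *Treml4*-/- cells at M1-8h. At M1-12h the changes were 1.36 and 1.10 (adjusted p = 1.11e-07 and 6.93e-07, limma). With median of ratios scaling, which sets libraries level by their typical gene, the changes of *Ebi3* were larger, at 2.33 and 1.90 at M1-8h and at 2.23 and 1.91 at M1-12h. Its rank among the 12086 genes, in order of log2 fold change from the highest, lay between 922 and 1252.

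For *Il12b* and *Il27*, which passed the filter through LPS libraries alone, values over M0 are given as a description. The log2 fold change of *Il12b* over M0 was 8.25 in wt and 8.12 in *Treml4*-/- cells at M1-8h. It was then 5.70 in wt and 5.89 in *Treml4*-/- cells by M1-12h. That of *Il27* was 8.99 and 9.09 at M1-8h, with 7.04 and 6.63 for M1-12h. These values are held down by the added 1 CPM, most of all for *Il12b* with its 1 to 4 reads at M0. On the deposited log2 CPM scale, which adds only 0.25 reads, *Il12b* was at 12.79 and 12.18 and *Il27* at 10.32 and 10.47 at M1-8h. The order of the 2 genes by fold change thus depended on the scale, and by the ratios of summed CPM above *Il12b* changed by the larger factor.

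*Il12a* reached 0.5 CPM in LPS libraries alone and could be fitted only with a filter at that level, which was chosen after its values were seen, so its values over M0 are given as a description. They were 0.90 in wt and 0.73 in *Treml4*-/- cells at M1-8h, with 0.64 and 0.36 for M1-12h, all kept small by the added 1 CPM. Without the second wt M1-12h library the wt M1-12h value was 0.43.

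Between 8 h and 12 h of LPS, *Il12b* and *Il27* were called lower in both genotypes and *Ebi3* was not called. Of all genes, 31.6% in wt (17.6% lower) and 32.3% in *Treml4*-/- cells (19.4% lower) were called between these times. *Il12b* fell by 2.55 (adjusted p = 1.44e-06, limma) in wt and by 2.24 (adjusted p = 2.72e-06, limma) in *Treml4*-/- cells. Its summed CPM at M1-12h were 0.171 and 0.208 of those at M1-8h. *Il27* fell by 1.95 (adjusted p = 6.31e-06, limma) in wt and by 2.46 (adjusted p = 1.76e-06, limma) in *Treml4*-/- cells, to 0.254 and 0.181 of its M1-8h level. The values of *Ebi3* were -0.13 (95% interval -0.34 to 0.08) in wt and -0.06 (-0.28 to 0.15) in *Treml4*-/- cells. With the filter at 0.5 CPM, *Il12a* was at -0.27 (adjusted p = 0.128, limma) in wt and -0.38 (adjusted p = 0.0403, limma) in *Treml4*-/- cells, neither of them called. The added 1 CPM keeps these values small too. By summed CPM its M1-12h level was 0.636 of that at M1-8h in wt (95% counting interval 0.450 to 0.893) and 0.429 in *Treml4*-/- cells (0.271 to 0.663).

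Levels of different genes were compared per kb of exon (CPM per kb). At M0 *Ebi3* came first, at 43.1 to 47.5 CPM per kb, followed by *Il27* at 0.513 to 0.718 and *Il12b* at 0.00980 to 0.0400, with *Il12a* and *Il23a* at 0 or 1 read. At M1-8h the order was *Il27* at 656 to 1027, *Il12b* at 133 to 171, *Ebi3* at 99.6 to 137 and *Il12a* at 0.362 to 0.633. The ranges of *Il12b* and *Ebi3* touched across genotypes, whereas within each genotype both *Il12b* values were above both *Ebi3* values. At M1-12h *Il27* was still first at 152 to 213 and *Ebi3* was second at 93.8 to 129.6, ahead of *Il12b* at 23.4 to 34.99 and *Il12a* at 0.159 to 0.467. *Ebi3* and *Il12b* thus changed places between 8 h and 12 h, and at M1-12h their ranges did not overlap.

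**Figure D2:**
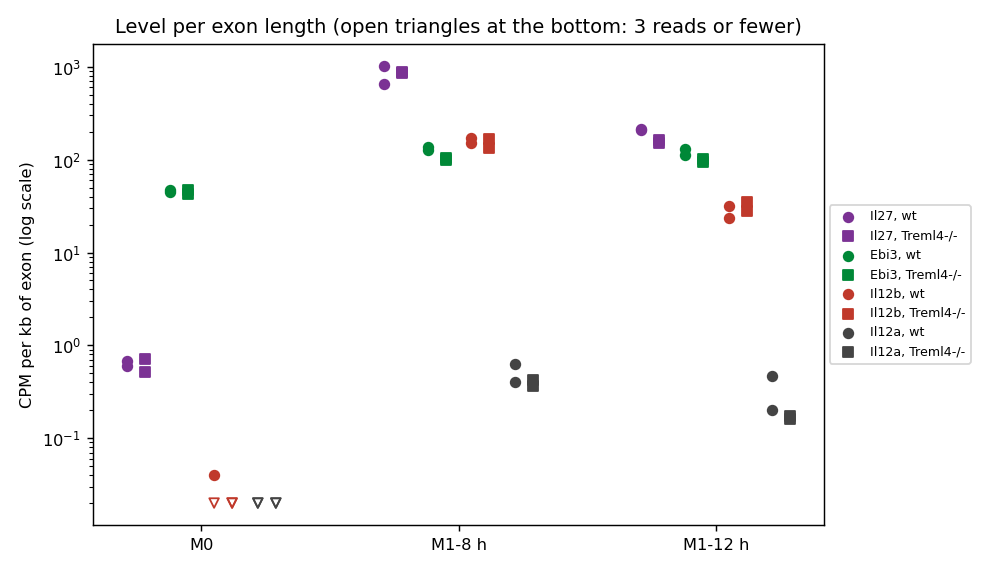
Level per exon length (vertical axis, CPM per kb of exon, log scale) of 4 subunit genes in each library at M0, M1-8h and M1-12h, wt as circles and Treml4-/- as squares. Open triangles at the bottom stand for libraries with 3 reads or fewer and are not drawn at their level. *Ebi3* was the highest gene at M0, *Il27* the highest under LPS, and *Il12a* stayed below 1 CPM per kb.

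The balance of subunits that pair was read within each library, where no scaling between libraries is needed. It is a balance of RNA, and protein, pairing and secretion of the chains were not measured in these libraries. For interleukin 12, the level of *Il12b* per exon length was 241 to 424 times that of *Il12a* at M1-8h and 50.1 to 220 times at M1-12h. The log2 ratio of their reads, with 0.5 reads added to each, was 8.64 ± 0.367 (SD, n = 4) at M1-8h and 7.18 ± 0.922 (SD, n = 4) at M1-12h, over both genotypes. The difference of -1.46 had p = 0.0286 in a two-sided exact permutation test over the 8 libraries, the smallest value that 4 against 4 libraries can give (0.0429 adjusted over the 3 pairs tested). The excess of *Il12b* over its partner was smaller at M1-12h in each library than in any at M1-8h. With labels permuted within genotype the p was 0.0556, and with the replicate number as a block 0.125, the smallest values those designs allow. The lowest ratio, 50.1, came from the second wt M1-12h library, and without it the difference was -1.01.

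For interleukin 27, the order of the partners turned over. At M0 *Ebi3* was 66.2 to 84.1 times the level of *Il27* per exon length. At M1-8h *Il27* was 4.77 to 8.65 times the level of *Ebi3*, and at M1-12h 1.58 to 1.87 times. The log2 ratio of *Ebi3* to *Il27* reads was -2.68 ± 0.403 (SD, n = 4) at M1-8h and -0.57 ± 0.111 (SD, n = 4) at M1-12h. The difference of 2.11 had p = 0.0286 (two-sided exact permutation test, 0.0429 adjusted over 3 pairs), again the smallest value possible, and 0.0556 within genotype and 0.125 with the replicate number as a block, which are the smallest there. The partners were therefore closer to each other in level at M1-12h than at M1-8h or M0. The M0 ratios were not tested.

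For interleukin 35, *Ebi3* was 217 to 316 times the level of *Il12a* per exon length at M1-8h and 278 to 591 times at M1-12h. The difference in the log2 ratio was 0.85 (p = 0.0857 in the two-sided exact permutation test, also 0.0857 adjusted over 3 pairs), and the times overlapped. For interleukin 23 the balance could not be tested. With *Il23a* at 0 reads, *Il12b* at M1-8h was at least 5808-fold higher per exon length in each library, against a floor of 3 reads. Between genotypes under LPS, the log2 ratios differed by -0.67 for interleukin 12 (p = 0.514), 0.16 for interleukin 27 (p = 0.857) and -0.29 for interleukin 35 (p = 0.514) in exact permutation tests over 8 libraries, wt relative to *Treml4*-/-.

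**Figure D3:**
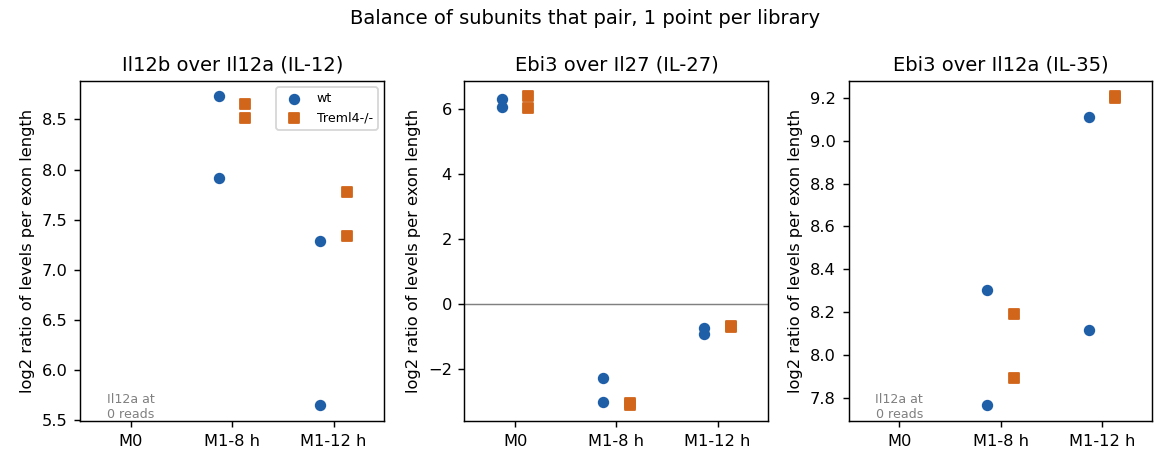
Balance of subunits that pair, as the log2 ratio of levels per exon length in each library (vertical axis) at M0, M1-8h and M1-12h, wt as circles and Treml4-/- as squares. In the middle panel the line at 0 marks equal levels: *Ebi3* was above *Il27* at M0 and below it in all 8 LPS libraries. No M0 ratio is drawn where *Il12a* had 0 reads.

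Genotype was compared at each time as wt relative to *Treml4*-/-. Of the 3 genes tested, 0 were called at M0, M1-8h, M1-12h or in the mean of the 3 times, where 0.0993%, 0.091%, 0.132% and 0.414% of all genes were called. At an unadjusted p under 0.05 there were 0, 1, 2 and 1 of the 3 genes and 3.35%, 21.0%, 7.55% and 20.1% of all genes (limma), and voom on the recovered reads also called 0. *Il12b* differed by -0.01, 0.11 and -0.20 at the 3 times, with 95% intervals from -0.37 to 0.35, from -0.25 to 0.47 and from -0.56 to 0.16. A difference of 1.4-fold either way was thus outside the interval at M1-8h, and a lower level in wt by that much was inside that at M1-12h. At M0, with 1 to 4 reads per library, the added 1 CPM sets the interval, and the ratio of summed CPM, 0.832 with a 95% counting interval of 0.201 to 3.27, held 1.4-fold either way within counting error.

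The difference of *Ebi3* was 0.37 (95% interval 0.15 to 0.58, adjusted p = 0.145, limma) at M1-8h and 0.30 (0.08 to 0.51, adjusted p = 0.43, limma) at M1-12h. At M0 the difference was 0.03 (-0.18 to 0.25). Over the 3 times the mean difference was 0.23 (adjusted p = 0.0862, limma), and the adjusted p ran from 0.0352 to 0.313 over 22 alternatives, each under 1.4-fold. The difference under LPS, in which the groups of 2 did not overlap, did not pass the test over all genes. The difference of *Il27* was 0.43 at M1-12h (0.07 to 0.79, adjusted p = 0.553, limma), 0.02 at M0 and -0.08 at M1-8h. *Il12a*, with the filter at 0.5 CPM, differed by 0.17 at M1-8h (adjusted p = 0.489, limma) and 0.28 at M1-12h (adjusted p = 0.726, limma). The added 1 CPM keeps these *Il12a* values small. By summed CPM, wt was at 1.34 times the *Treml4*-/- level at M1-8h (95% counting interval 0.979 to 1.85). At M1-12h the ratio was 1.99 (1.26 to 3.21). Without the second wt M1-12h library, which had 40 reads against 18 in the first, the log2 difference at M1-12h was 0.07.

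The response to LPS itself did not pass the test of a difference between genotypes in any of the 3 genes, where 0.00827% of all genes were called at M1-8h, 0.00827% at M1-12h and 0% between the times. At an unadjusted p under 0.05 there was 1 of the 3 genes from M0 to M1-8h, 0 from M0 to M1-12h and 1 between the LPS times, and 6.67%, 3.82% and 3.21% of all genes (limma). The largest such difference was that of *Il27* between 8 h and 12 h, at 0.51 (95% interval 0.01 to 1.02, adjusted p = 0.948, limma). That of *Ebi3* from M0 to M1-8h was 0.33 (0.03 to 0.63, adjusted p = 0.729, limma). *Il12b* and *Ebi3* differed by -0.31 and -0.07 between 8 h and 12 h.

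**Figure D4:**
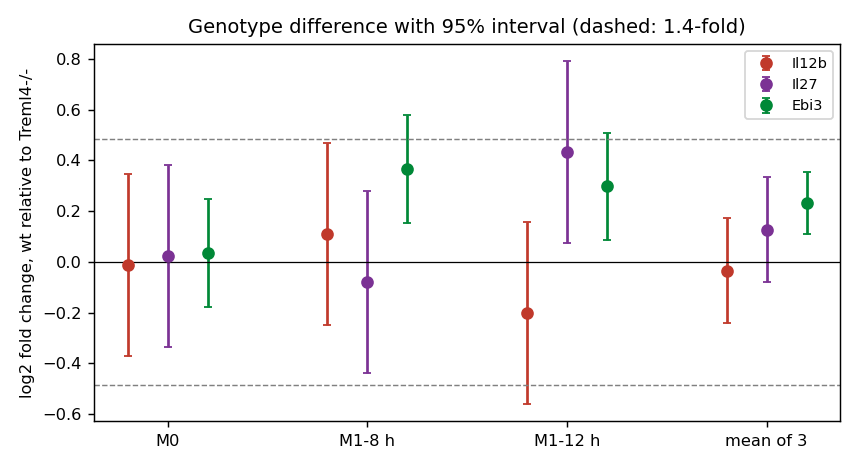
Difference between genotypes (vertical axis, log2 fold change, wt relative to Treml4-/-, limma) for the 3 tested subunit genes at each time and for the mean of the 3 times, with 95% intervals and dashed lines at 1.4-fold. The intervals of *Ebi3* lay above 0 at M1-8h (0.15 to 0.58) and M1-12h (0.08 to 0.51), and no gene was called after adjustment over all genes.

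The receptors of the family are built from the chains *Il12rb1*, *Il12rb2*, *Il23r*, *Il27ra* and *Il6st*. Of these 5 genes, 3 were called higher and 2 lower in each genotype at each LPS time. In the same comparisons 16.1% to 17.7% of all genes were called higher and 75.7% to 76.9% in either direction, so that most genes called were lower. However, *Il12rb1* and *Il23r* passed the filter through LPS libraries alone and *Il27ra* through M0 libraries alone. The directions of these genes were thus built in. *Il12rb1*, which binds p40, went from 12 to 24 reads per library at M0 to 3296 to 4165 at M1-8h and 2425 to 3395 at M1-12h. As a description, its log2 fold change was 5.76 in wt and 5.49 in *Treml4*-/- cells at M1-8h. *Il12rb2*, the signalling partner for interleukin 12, rose by 1.67 and 1.48 at M1-8h and fell by 0.71 and 0.94 from there to M1-12h.

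*Il23r*, the receptor chain particular to interleukin 23, had 0 reads in the 4 M0 libraries, 163 to 335 at M1-8h and 254 to 332 at M1-12h. It was at least 57.7-fold higher at M1-8h in wt and at least 83.9-fold higher in *Treml4*-/- cells, while its ligand chain *Il23a* stayed at 0 reads at that time. *Il6st* (gp130), the signal-transducing chain for interleukin 27 and interleukin 6, fell by 2.24 and 2.10 at M1-8h, well below the median gene. *Il27ra*, the other chain of the interleukin 27 receptor, had 60 to 98 reads per library at M0, 20 to 41 at M1-8h and 12 to 18 at M1-12h. By summed CPM its M1-8h level was 0.363 of that at M0 in wt (95% counting interval 0.266 to 0.489) and 0.316 in *Treml4*-/- cells (0.221 to 0.445). On the log2(CPM + 1) scale the values were -0.73 and -0.70, kept small by the added 1 CPM at these levels, and with median of ratios scaling it was too low to be tested.

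Downstream, 3 of the 5 kinase and STAT genes were called higher and 0 lower in each genotype at each LPS time. Of all genes, 16.1% to 17.7% were called higher in these comparisons and 75.7% to 76.9% in either direction, most of them lower. With median of ratios scaling 5 of 5 were called higher, as were 3764 to 4013 of the 11886 genes tested under that scaling. *Jak2*, which signals at the interleukin 12 and interleukin 23 receptors, rose by 4.26 in wt and 4.59 in *Treml4*-/- cells at M1-8h. *Stat3*, which interleukin 23 and interleukin 27 activate, rose by 2.60 and 2.41. *Stat4*, the main STAT of interleukin 12 signalling, reached only 38 to 73 reads per library at M1-8h, from 5 to 10 at M0. It was called at 0.95 and 0.68 at M1-8h but missed the call at M1-12h (0.37 and 0.45), on a scale that understates it at these levels. *Stat4* passed the filter through 2 M1-8h libraries alone, both wt. Its higher level there, which is in the count at M1-8h, was thus built in. *Tyk2* was called at M1-12h only (0.95 and 0.81, against 0.47 and 0.40 at M1-8h), and *Jak1* was not called at 0.22 to 0.32, although both were called higher at M1-8h and M1-12h with median of ratios scaling.

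Of 13 transcription factor genes known to act at subunit genes, 9 were called higher and 1 lower at M1-8h in wt, and 9 higher and 2 lower in *Treml4*-/- cells. At M1-12h the counts were 8 higher and 2 lower in wt, and 7 higher and 1 lower in *Treml4*-/- cells. The share of all genes called higher in these comparisons was 16.1% to 17.7%, and 75.7% to 76.9% were called in either direction, most of them lower. With median of ratios scaling 11 were called higher and 0 lower, whichever the genotype or LPS time. Under that scaling 3764 to 4013 of the 11886 genes tested were called higher, so a count of genes called higher has a larger background there. *Rel*, *Nfkb1* and *Nfkbiz*, genes of the NF-kB pathway, rose and then fell as *Il12b* and *Il27* did. *Rel*, whose product c-Rel acts at *Il12b*, went from 14.5 to 18.6 CPM at M0 to 58.1 to 83.2 CPM at M1-8h and 19.2 to 27.6 CPM at M1-12h, a fall of 1.48 in wt and 1.73 in *Treml4*-/- cells between the LPS times (adjusted p = 8.01e-05 and 2.83e-05, limma). *Nfkb1* rose by 1.71 and 1.46 and then fell by 1.58 and 1.49. *Nfkbiz* rose by 2.42 and 2.45 and then fell by 0.71 and 0.67.

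Interferon regulatory factors differed among themselves. *Irf8*, a partner of other factors at *Il12b*, rose by 2.13 and 1.79 at M1-8h and fell by 1.21 and 0.96 to M1-12h. *Irf1*, known to act at *Il12a* and *Il27*, rose by 3.55 and 3.41 and was at 3.67 and 3.65 at M1-12h, with no call between the LPS times. *Irf3* was called lower at -0.86 (wt) and -1.05 (*Treml4*-/-) at M1-8h, and likewise at -0.97 and -1.15 by M1-12h, but it was not called with median of ratios scaling (-0.05 and -0.33 at M1-8h, -0.13 and -0.36 at M1-12h). *Irf5* was not called at -0.12 to -0.21, and with median of ratios scaling it was called higher at 0.63 to 0.69.

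*Cebpb* rose by 1.63 and 1.60 at M1-8h and was at 1.61 and 1.68 at M1-12h. *Atf3*, a known repressor of *Il12b*, was called at 0.65 and 0.55 at M1-8h and rose again by 0.77 and 0.88 to M1-12h. *Nfil3*, another known repressor of *Il12b*, rose by 2.996 and 2.61 at M1-8h and was at 2.71 and 2.20 at M1-12h, and *Maf*, an activator of *Il10*, rose by 2.28 and 2.99 at M1-8h. *Spi1*, the macrophage factor PU.1, was between -0.40 and -0.56 over M0 at the 2 times and was called lower in *Treml4*-/- cells at M1-8h and in wt at M1-12h, but with median of ratios scaling it was not called and was at 0.19 and 0.34 there. *Rela* was not called at -0.03 to 0.33, and with median of ratios scaling it was called higher at 0.83 to 1.17.

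Interleukin 10 is known to hold back p40 and p35 in macrophages. *Il10* had 1.53 to 1.70 CPM at M0, 53.0 to 104.5 CPM at M1-8h and 48.2 to 73.1 CPM at M1-12h. Its log2 fold change was 4.74 in wt and 5.35 in *Treml4*-/- cells at M1-8h (adjusted p = 7.07e-09 and 2.84e-09, limma) and 4.49 and 4.50 at M1-12h. Between the LPS times *Il10* was called lower in *Treml4*-/- cells, at -0.85 (adjusted p = 0.012, limma), and was at -0.26 in wt, which was not called. The receptor gene *Il10ra* rose by 1.41 and 1.33 at M1-8h and fell by 0.79 and 0.76 to M1-12h. *Il10rb* was called lower at -1.18 and -0.99 at M1-8h but not with median of ratios scaling (-0.34 and -0.24), and rose by 1.03 and 0.94 from there to M1-12h. No gene of these lists was called between genotypes at any time, with 0 of 26 in each comparison (limma). The shares of all genes called were 0.0993% at M0, 0.091% at M1-8h, 0.132% at M1-12h and 0.414% in the mean of the times. A count of 0 of 26 is near these shares and says nothing particular of the listed genes. At an unadjusted p under 0.05 there were 0 at M0, 10 at M1-8h, 4 at M1-12h and 10 in the mean of the times, where the shares of all genes were 3.35%, 21.0%, 7.55% and 20.1%, and voom on the recovered reads also called 0.

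**Figure D5:**
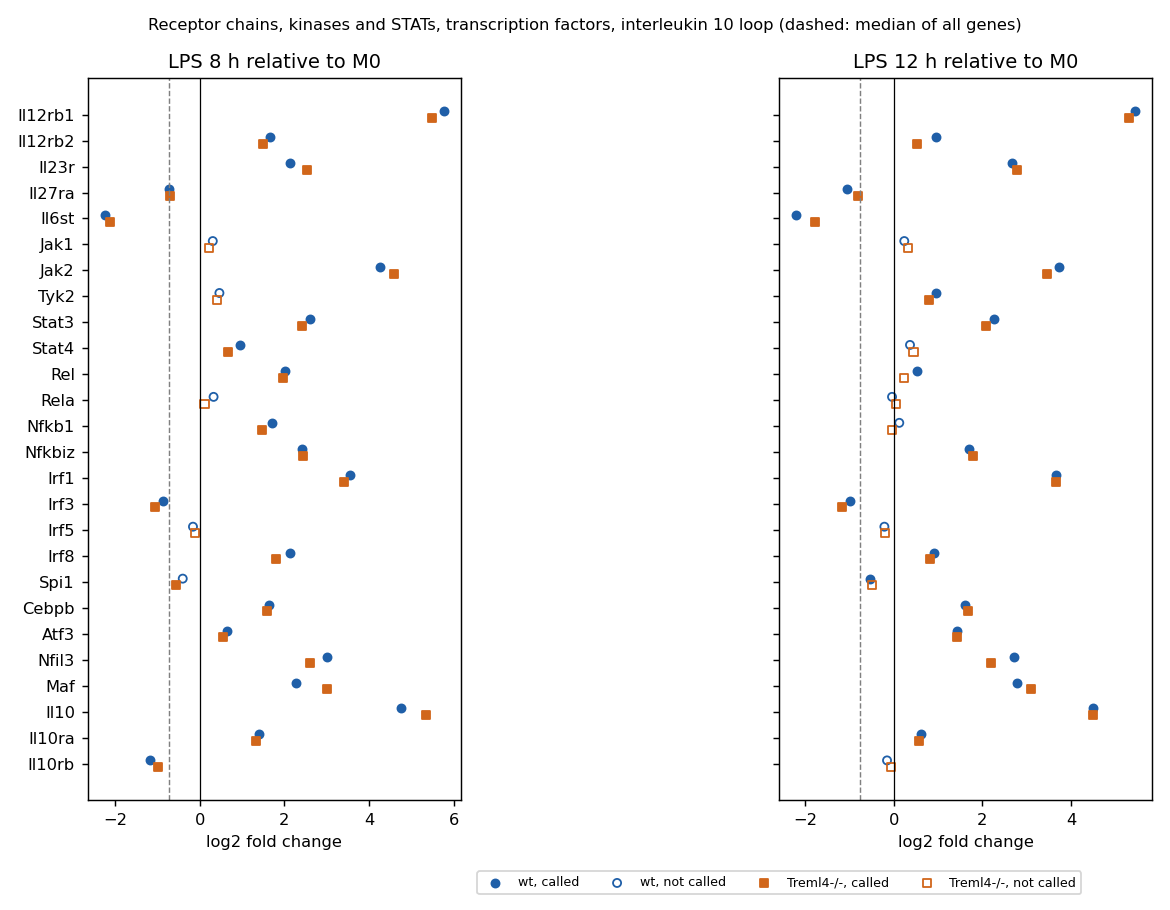
Log2 fold change of the receptor, kinase and STAT, transcription factor and interleukin 10 genes (horizontal axis, limma) at 8 h and 12 h of LPS relative to M0, wt as circles and Treml4-/- as squares, filled where called. Dashed lines mark the median of all genes. *Il12rb1* and *Il10* lay farthest to the right, *Il6st* farthest to the left, and *Rel* and *Nfkb1* moved back toward 0 at 12 h.

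The genes whose levels followed each subunit gene most closely were ranked by Pearson's r of log2(CPM + 1) over the 12 libraries, which share the 3 times and the same depth range, so that r is a description only. *Il12b* was closest to *Il4ra* (r = 0.997), the chain that binds interleukin 4, *Klrb1b* and *Tle3*. *Il27* was closest to *Gnb4* (r = 0.999), *Abtb2* and *Lhx2*, and *Ebi3* to *Ifitm2* (r = 0.993), *Cfap43* and *Nfkbib*, which codes for an inhibitor of NF-kB. *Il12a* was closest to *Agrn* (r = 0.983), *Hbegf* and *Tpbg*. Such values were common: 594 of 12083 genes were above 0.95 with *Il12b*, 682 with *Il27*, 517 with *Ebi3* and 53 with *Il12a*. Among the subunit genes, *Il12b* and *Il27* were closest (r = 0.996) and *Il12a* and *Il12b* least close (r = 0.906).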

How the data were processed

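Libraries were poly(A)-selected with a stranded kit and read as pairs on a HiSeq instrument. The authors aligned reads with STAR (the processing notes name mm10), counted them with Subread and deposited log2 CPM. Annotation, strand setting and versions are not given in the sources used here. The values hold a prior of 0.25 reads, and whole reads were recovered for 100% of them (largest difference from the deposited log2 value 5.15e-14). Replicates differed by more than sampling noise (chi-square divided by its degrees of freedom was at least 12.0).

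The limma 3.58.1 test (trend, R 4.3.3) ran on log2(CPM + 1), which makes changes of low genes look smaller, with 1 mean per condition over all 12 libraries. The groups of 2 share their estimate of the spread. A call needed at least 1 CPM in at least 2 libraries, a Benjamini-Hochberg adjusted p under 0.05 over all 12086 genes tested and a change of 1.4-fold or more. The test had been written for CPM, so the deposited log2 values were turned back first. Subunit balance was tested with two-sided exact permutation over libraries (scipy 1.17.1), and tables used Python 3.11.15, pandas 2.3.3 and numpy 2.4.6. Intervals on reads and floors of 3 reads cover counting error only. The code was tested on simulated data.

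Members, pathway lists and markers were chosen with earlier results of these data known, and no p is adjusted over a list alone. Genes named are the 5 members, the listed pathway genes and the 3 genes most like each member. Of the pathway genes first listed, 2 are not reported here and are in no list count. Positions and lengths are from GENCODE M21 (GRCm38) and promoter sequences from RefSeq (GRCm38.p6). Marker *Adgre1* was found under its older symbol. Alternatives were a pseudocount of 0.1, filters at 5 CPM and none, the deposited log2 CPM used directly, median of ratios scaling, voom, only the libraries compared, replicate blocks and leaving out each library. A filter at 0.5 CPM, voom with that filter and the longest coding transcript as length were chosen after seeing the data.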

Additional observations from a re-analysis of the deposited data

How the results depend on the processing

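The counts of subunit genes called in each comparison stayed the same, or within 1.5 times, under each alternative, the added filter at 0.5 CPM and the replicate blocks included. The values that changed sign belong to differences that were not called. With median of ratios scaling, the mean genotype difference of *Il12b* was 0.0402, the M1-8h genotype difference of *Il27* 0.0511, its genotype by LPS difference at 8 h 0.024 and the *Ebi3* difference between LPS times in *Treml4*-/- cells 0.0078. The genotype by LPS difference of *Il12b* at 12 h was 0.2947 with the deposited log2 CPM, 0.2344 with voom and 0.2352 with voom and the lower filter, and the genotype difference of the *Ebi3* to *Il12a* balance was 0.1083 with 1 CPM added (exact permutation p = 0.4). The cause was not tested. Replicate numbers were shared by label only: same-numbered wt and *Treml4*-/- libraries deviated together with r = -0.264, 0.298 and 0.056 at the 3 times. With the replicate number as a block, genotype calls over all genes at M0, M1-8h, M1-12h and in the mean went from 12, 11, 16 and 50 to 12, 12, 15 and 55. The time differences in balance, -1.4605 for interleukin 12 and 2.1129 for interleukin 27, no longer passed with a replicate block (exact permutation p = 0.125) or with labels permuted within genotype (p = 0.0556), and these are the smallest values those designs allow.

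Leaving out 1 library at a time kept the sign and the call of *Il12b*, *Il27* and *Ebi3* in each comparison of LPS with M0. For *Il12b* and *Il27* that sign was built in by the filter. Differences that changed sign, none of them called, ran as follows. For *Il12b* the genotype difference ran from -0.0546 to 0.0271 at M0, -0.0612 to 0.2843 at M1-8h, -0.4142 to 0.012 at M1-12h and -0.1055 to 0.0366 in the mean, and its genotype by LPS difference from -0.0475 to 0.298 at 8 h and -0.4005 to 0.0258 at 12 h. For *Il27* the genotype difference ran from -0.0698 to 0.1161 at M0 and -0.4018 to 0.2428 at M1-8h, and the genotype by LPS difference at 8 h from -0.4249 to 0.2197, with the extremes set by the 2 wt M1-8h libraries. For *Ebi3* the difference between LPS times in *Treml4*-/- cells ran from -0.1279 to 0.0002, the M0 genotype difference from -0.0352 to 0.1023 and the genotype by LPS difference between 8 h and 12 h from -0.1699 to 0.0339. That of *Il12a* ran from -0.1012 to 0.314. The balance differences between times ran from -1.7112 to -1.0125 for interleukin 12 and from 2.0276 to 2.3135 for interleukin 27 (exact permutation p = 0.0571 throughout, the smallest that 7 libraries allow), and the interleukin 27 genotype difference from -0.2557 to 0.5853. With voom, *Il12a* in *Treml4*-/- cells was called lower at M1-12h than at M1-8h (-1.19). Per longest coding transcript, the *Il12b* to *Il12a* ratio was 187 to 329 at M1-8h and 38.8 to 170.4 at M1-12h. Depth limits *Il12a*, *Il23a* and the M0 levels of *Il12b* and *Il27*, and with 2 libraries per condition the tests rest on a spread shared by all conditions.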
